A study of Mus musculus with 9 samples.

Results

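The 10 genes described here encode the machinery of MHC class I antigen presentation: B2m, H2-K1, H2-D1, H2-T23, Tap1, Tap2, Tapbp, Psmb8, Psmb9 and Nlrc5. They were chosen by name from the pathway, by no threshold on their values but with earlier results of these data known, and all 10 were found among the 52636 genes of the deposited table. Their unique molecular identifiers (UMIs, counts of single captured mRNA molecules) were summed per sample and per cell label of the authors. Thyroids from male C57BL/6 animals, 6 per sample, were dissociated with Liberase TM and profiled with the 10x Chromium Single Cell 3' v2 kit. Each mouse had received 1 intraperitoneal injection 7 days earlier. The group RW (3 samples) received 40 mg/kg of anti-ragweed antibody, the isotype control. The group aJ1aJ2 (3 samples) received blocking antibodies to the Notch ligands Jag1 and Jag2 at 20 mg/kg each. The group aN1aN2 (3 samples) received blocking antibodies to the receptors Notch1 (5 mg/kg) and Notch2 (10 mg/kg). The mice were 10 to 12 weeks old by the design text and 10 to 14 weeks by the protocol, and every sample was a pool, so no value belongs to a single mouse.

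MHC class I molecules display peptides from inside a cell to CD8 T cells and to NK cells. Proteasomes cut proteins into peptides, and interferon exchanges catalytic subunits of the constitutive proteasome for the inducible subunits encoded by Psmb8, Psmb9 and Psmb10. Tap1 and Tap2 form the transporter that carries the peptides into the endoplasmic reticulum, where Tapbp (tapasin) holds the transporter and the empty class I molecule together until a peptide is bound. H2-K1 and H2-D1 are the classical heavy chains of the mouse, H2-T23 encodes the nonclassical heavy chain of Qa-1, which inhibits NK cells through NKG2A, and B2m is the light chain they share. Nlrc5 is the transactivator of class I promoters.

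The files held 10186 cells with 500 to 131347 UMIs each, in 16 labels. That is 583 to 1805 cells per sample, where the protocol aimed at 8000. Samples held 7657020 to 10157319 UMIs in RW, 4697308 to 11880793 in aJ1aJ2 and 3013324 to 4447972 in aN1aN2. All 3 aN1aN2 samples carried consecutive title numbers, a number series that held no RW or aJ1aJ2 sample. The series was read from the numbers alone, since no sample title names a batch. This number series and the group cannot be told apart. Median UMIs per Th1 cell were 12535 to 22558 in the RW samples, 9968 to 15314 in aJ1aJ2 and 5737 to 7558 in aN1aN2, and the part of this depth gap in the results was not tested. The p-values measure the spread between pools. The labels are the authors' names. In RW, thyrocyte markers summed to 89604 to 96866 CPM (UMI counts scaled to the total of the sum) in Th1 and 61145 to 97240 in Th3, and endothelial markers to 3385 to 15921 CPM in EC1, EC2, EC3 and EC4. Fibroblast markers summed to 31070 to 34451 CPM in F, leukocyte and macrophage markers to 74330 to 108670 in M, T and NK markers to 2970 to 3940 in T1, and erythroid markers to 931370 to 971070 in Eryth1 and Eryth2. These markers matched the labels, and the label S is used by its name only. Of all cell barcodes, 15 were shared by 2 libraries.

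B2m lies on chromosome 2 (122147686 to 122153083, plus strand) and Nlrc5 on chromosome 8 (94434356 to 94527272, plus strand) of GRCm38, by the GENCODE M21 annotation. The other 8 genes lie on chromosome 17, in or beside the MHC. Tapbp (33915899 to 33929292) and H2-K1 (33996017 to 34000347, minus strand) are followed by the cluster of Psmb9 (34181987 to 34187764, minus strand), Tap1 (34187553 to 34197225), Psmb8 (34197721 to 34201454) and Tap2 (34203527 to 34216321), then by H2-D1 (35262730 to 35267499) and H2-T23 (36029773 to 36032855, minus strand). By these spans Tap1 and Psmb9 overlap by 212 bp on opposite strands. By the RefSeq starts (34187556 for Tap1 and 34187330 for Psmb9) they are transcribed in opposite directions from points 226 bp apart. Their promoter windows, as defined below, overlap by 275 bp.

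RefSeq promoters (GRCm38.p6, 250 bases before to 50 after a start) were matched for 8 of the 10 genes, all but Tap2 and Nlrc5. The B2m and H2-K1 promoters are shown as those of the light chain and of a classical heavy chain. Capitals mark the motifs searched on both strands, which were the core of the interferon-stimulated response element (the first capitals in B2m, whose 2 middle bases are free), the kappa B site (the first capitals in H2-K1), the X2 box core TGACGC and the Y box core ATTGG.
B2m, chr2:122147437-122147686, plus strand, 5′ to 3′: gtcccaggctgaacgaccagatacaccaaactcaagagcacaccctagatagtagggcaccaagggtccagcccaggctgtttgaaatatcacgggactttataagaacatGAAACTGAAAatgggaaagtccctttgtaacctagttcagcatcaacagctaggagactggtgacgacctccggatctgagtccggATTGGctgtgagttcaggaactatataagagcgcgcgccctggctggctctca
H2-K1, chr17:34000348-34000597, minus strand, 5′ to 3′: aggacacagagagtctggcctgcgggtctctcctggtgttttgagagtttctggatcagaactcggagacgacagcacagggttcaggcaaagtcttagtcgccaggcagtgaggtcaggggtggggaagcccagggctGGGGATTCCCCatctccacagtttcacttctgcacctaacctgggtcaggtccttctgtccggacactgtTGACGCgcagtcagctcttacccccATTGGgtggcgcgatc

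H2-K1 and H2-D1 are set side by side because the results give their changes separately in EC4 and in Th1, and both windows hold the same motifs. The windows of 30 bases around the kappa B site were identical at 29 of 30 bases.
H2-K1, kappa B, chr17:34000438-34000467, minus strand: cccagggctGGGGATTCCCCatctccacag
H2-D1, kappa B, chr17:35262914-35262943, plus strand: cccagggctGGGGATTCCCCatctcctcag
From the X2 core to the Y core the spacing was the same and 23 of 30 bases were identical.
H2-K1, X2 to Y, chr17:34000359-34000388, minus strand: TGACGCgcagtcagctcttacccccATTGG
H2-D1, X2 to Y, chr17:35262993-35263022, plus strand: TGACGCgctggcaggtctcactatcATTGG
H2-T23, which rose where H2-D1 fell in Th1, held the exact letters of the interferon motif on the other strand, and its window is shown beside those of the other heavy chains.
H2-T23, chr17:36032806-36032835, minus strand: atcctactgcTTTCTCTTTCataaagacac
Over all 32851 mouse promoters of the same length, the interferon motif was present in 3.44%, the kappa B site in 0.0304%, TGACGC in 7.4% and ATTGG in 37.4%. Among the 8 genes the interferon motif was in the windows of B2m and H2-T23, and the kappa B site and TGACGC were in those of H2-K1 and H2-D1. ATTGG was in the windows of 7 genes, with Psmb8 the exception, where none of the 4 motifs was found. A match describes the letters of a window and does not show that a factor binds there.

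In control thyroids the class I presentation genes were at or near 0 in the erythroid labels, lower in thyrocytes than in endothelium, and had their highest mean in an endothelial label or, for Nlrc5, in the T cell label T1. Levels across labels are plain CPM, given for the RW samples with at least 20 cells of a label, in the 12 labels with 2 or 3 such samples, as means with the range over samples, and each is compared only within a gene. The labels may rest on the expression of these same cells, so no test is given between them. B2m was highest in EC4 (3650 CPM, 3181 to 4088), followed by EC1 (2980), M (2478) and EC2 (2444), whose ranges overlapped with those of their neighbours in this order. T1 (1798), EC3 (1295), F (989.7) and S (903) were next, and Th1 (484, 428 to 524) and Th3 (376) lay apart below them. Eryth1 (21.9) and Eryth2 (4.54) lay apart at the bottom. The labels T2 and SM had 1 RW sample with enough cells each, with no spread to place them. B2m was at 323 CPM in T2 (RW 2) and 369 in SM (RW 3), and H2-K1 at 75.5 and 167, below the Th1 and Th3 means of both genes. Psmb8, in contrast, was at 461 CPM in T2 and Tap2 at 208, near their levels in EC1.

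H2-K1 had its highest mean in EC4 (2518 CPM) and H2-D1 in EC1 (3066 CPM), so the heavy chains did not rank the labels alike. H2-D1 was sixth in EC4, at 1846 CPM (1734 to 1910), below EC1 (2819 to 3215) without overlap. H2-K1 was at 653 CPM in Th1 and 704 in Th3, both of whose ranges overlapped with the next label, F (586). H2-T23 stood apart in EC1 at 760 CPM (729 to 792) from the next label, EC4 (491, 312 to 694), and was at 47.2 CPM in Th1 (40.0 to 53.7). The ratio of the EC1 mean to the Th1 mean was 16.1 for H2-T23, 6.31 for H2-D1, 6.15 for B2m and 3.48 for H2-K1.

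The peptide supply genes had a like order. Tap1 was at 79.5 CPM in EC1 and 14.0 in Th1, and all neighbours in its order overlapped down to Th1. Tap2 was at 244 CPM in EC4, 218 in EC1 and 38.0 in Th1. Tapbp, the loading factor, was at 444 CPM in EC4, 344 in EC1, 146 in Th1 and 106 in S, and its EC1 to Th1 ratio of 2.35 was the smallest of the 9 genes other than Nlrc5. The inducible proteasome subunits differed more between these labels. Psmb8 was at 465 CPM in EC1, 452 in M and 441 in T1, which overlapped, and at 54.0 in Th1 and 30.2 in Th3. Psmb9 was at 246 CPM in EC1 and 21.4 in Th1, a ratio of 11.5. The transactivator Nlrc5 was sparse, with 267 UMIs in all cells. It was at 34.7 CPM in T1, 22.4 in M, 20.0 in EC2 and 19.1 in EC4, with overlapping ranges, at 0.922 CPM in Th1, and had no UMI in F, S, Th3, Eryth1 or Eryth2.

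**Figure D1:**
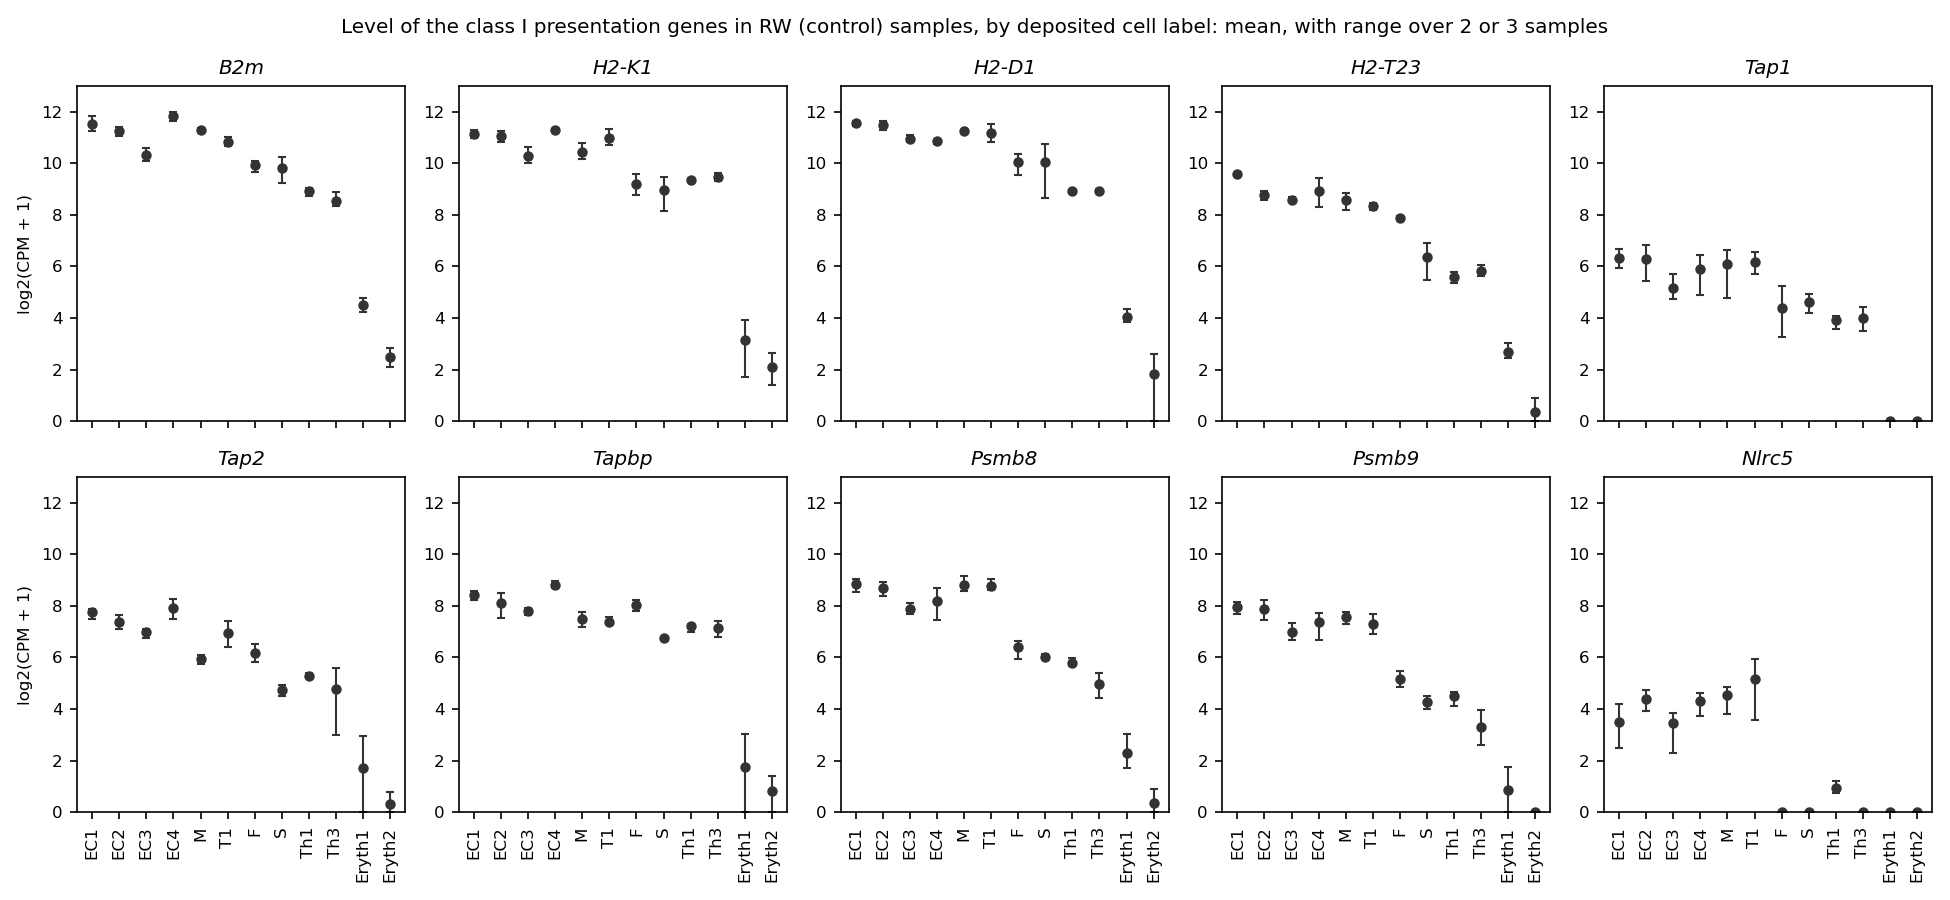
Level of each gene in the RW samples by cell label (x axis) as log2(CPM + 1) (y axis), with points for the mean of 2 or 3 samples and bars for their range. B2m ran from 3650 CPM in EC4 to 4.54 in Eryth2, and Nlrc5 from 34.7 CPM in T1 to 0 in 5 labels.

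Over the 11 labels with at least 100 RW cells the 9 genes with enough UMIs (all but Nlrc5) varied together, with Pearson r between 0.833 and 0.989 for their 36 pairs (median 0.946). The 2 erythroid labels, near 0 for all, are among the 11 points, and the points of a pair share libraries and depth, so these values are descriptions. Enough UMIs were held by 9801 genes, these 9 included. The other genes with the profile most like the mean of the 9 included Skil (r 0.995), Psmb10 (0.994), Parp9 (0.993), H2-T22 (0.991), Sft2d1 (0.990), Rassf1 (0.988) and Rap1a (0.986). Psmb10 is the remaining inducible catalytic subunit. The genes most like B2m alone were Skil (0.987) and Psmb10 (0.985), those most like H2-D1 Skil (0.987) and Zfp36 (0.984), and those most like H2-K1 Mavs and Siah2 (0.983 each).

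The first comparison asked how blocking the receptors Notch1 and Notch2 changed these genes. The inducible proteasome gene Psmb9 fell in thyrocytes and in 3 of 4 endothelial labels, and a peptide transporter gene fell in Th1 (Tap2) and in EC1 (Tap1). The nonclassical heavy chain H2-T23 rose in Th1 and EC4 and fell in EC2. Psmb9 fell in 4 of 5 labels tested, with log2 changes of -0.87 to -1.45, Psmb8 fell in 3 of 6, and B2m in 1 of 7, the fibroblasts. Counts were tested per label with edgeR's quasi-likelihood test, adjusted by Benjamini-Hochberg over all genes of the label, and called at an adjusted p under 0.05. Of 56 gene and label pairs tested in 9 labels, 14 were called lower and 3 higher, and 48 had a change below 0 (85.7%, beside 49.7% over all genes). Among all genes in these labels 19.9% of pairs were called, 9.87% lower and 10% higher.

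In Th1, the thyrocyte label (425 RW cells, 348 aN1aN2 cells), 9 of the 10 genes were tested, 4 fell and 1 rose, where 34.4% of all 10627 genes were called, 17.3% lower and 17.1% higher. Their median log2 change was -0.36, beside 0.02 over all genes. The plot of Th1 levels shows the 9 samples of each gene in CPM scaled by the TMM method (trimmed mean of M-values), the scale used from here on within a label.

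Psmb9 was at 23.5, 24.1 and 16.6 CPM in RW 1, 2 and 3, and at 10.3, 10.8 and 9.58 in aN1aN2 1, 2 and 3. All aN1aN2 samples lay below all RW samples, a log2 change of -1.01 (SE 0.24, edgeR adjusted p 0.00447). Psmb8, its partner subunit, was at 49.5, 62.2 and 50.6 CPM in RW and at 33.2, 37.2 and 33.5 in aN1aN2. The groups did not overlap and the change was -0.61 (SE 0.15, edgeR adjusted p 0.00567). Both calls held in 14 of 14 alternative analyses.

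Tap2, a subunit of the peptide transporter, was at 40.4, 36.1 and 37.5 CPM in RW 1, 2 and 3 and at 23.4, 27.6 and 25.2 in aN1aN2. The groups did not overlap, with a change of -0.59 (SE 0.16, edgeR adjusted p 0.0106), and the call was lost without aN1aN2 1 (0.0702) or with equal numbers of cells per sample (0.246). Tap1, the other subunit, was at 15.6, 15.4 and 11.01 CPM in RW and at 6.52, 12.0 and 4.79 in aN1aN2. Its aN1aN2 2 sample lay among the RW samples, and the change of -0.73 (SE 0.34) did not pass (edgeR adjusted p 0.110, and 0.0424 without aN1aN2 2). Tapbp was at 156, 155 and 129 CPM in RW and 126, 121 and 133 in aN1aN2, which overlapped (-0.21, edgeR adjusted p 0.275).

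Among the heavy chains, H2-D1 was at 490.0, 504 and 466 CPM in RW and at 407, 365 and 361 in aN1aN2, without overlap. Its change was -0.36 (SE 0.10, edgeR adjusted p 0.0139), lost without aN1aN2 2 (0.066) or with equal cells (0.0859). H2-K1 was at 648, 689.6 and 623 CPM in RW and at 627, 569.7 and 577 in aN1aN2, which overlapped (-0.14, SE 0.10, edgeR adjusted p 0.293). H2-T23 went the other way, from 53.2, 40.1 and 48.3 CPM in RW to 65.2, 84.6 and 59.9 in aN1aN2. Every aN1aN2 sample was above every RW sample and aN1aN2 2 was the highest, a change of 0.56 (SE 0.15, edgeR adjusted p 0.0102). Without aN1aN2 2 it was 0.40 and not called (0.09). The light chain B2m was at 496, 526 and 433 CPM in RW and 397, 452 and 367 in aN1aN2, with overlap, and its change of -0.25 (SE 0.11) did not pass (edgeR adjusted p 0.0869, and 0.0436 without RW 3). Nlrc5 had 9 UMIs in RW, 9 in aJ1aJ2 and 1 in aN1aN2 and was too low to test.

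**Figure D2:**
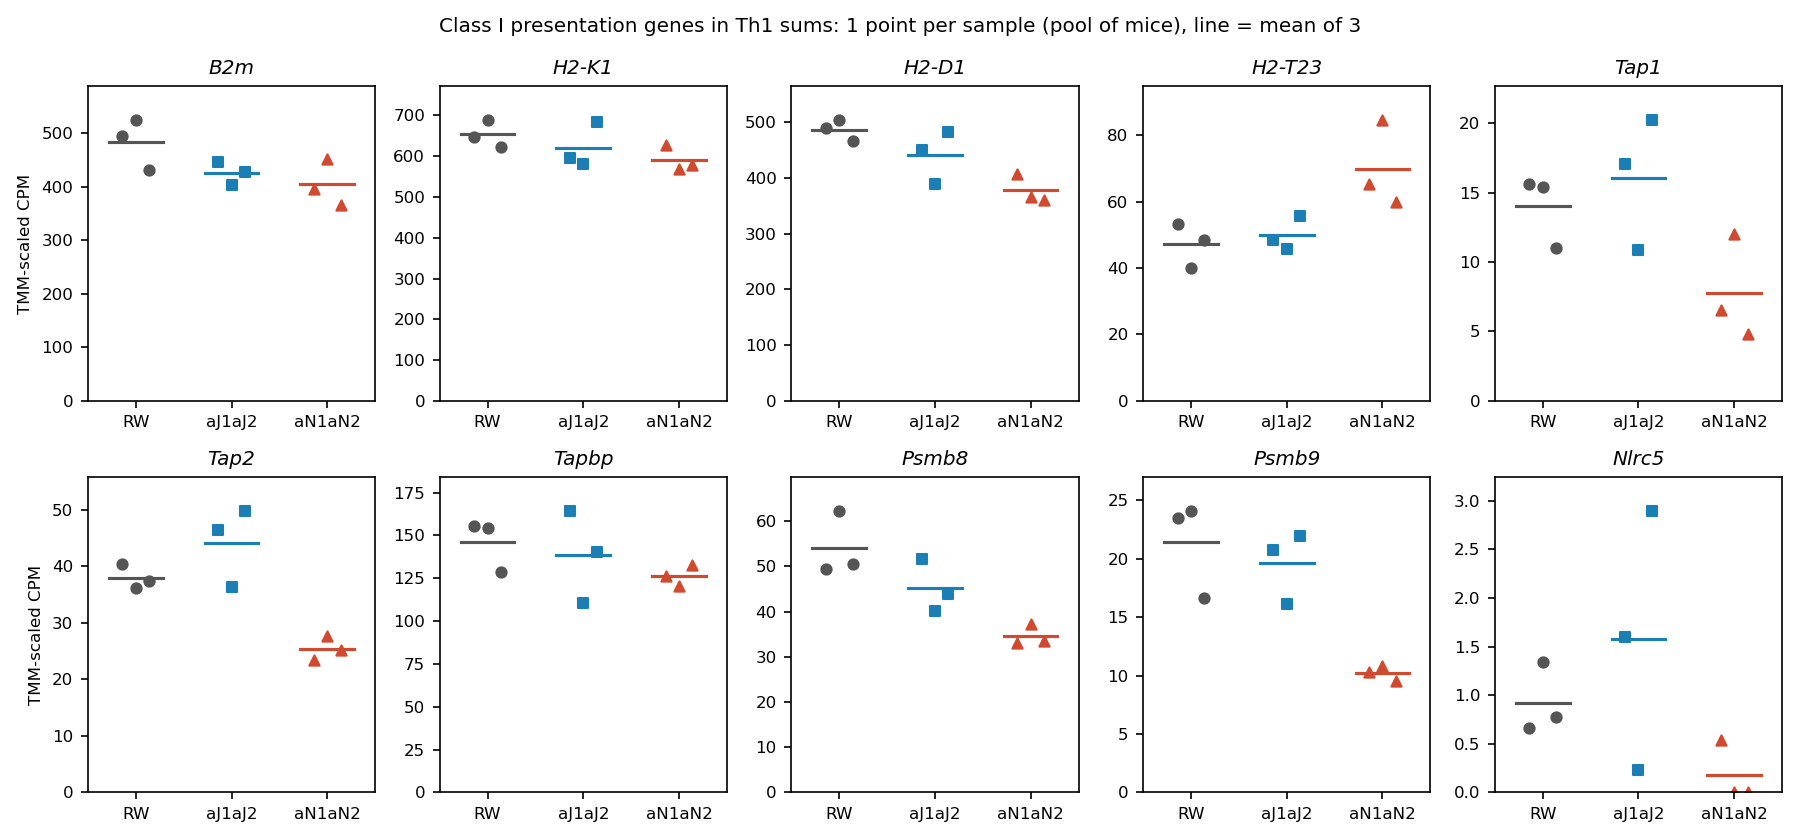
TMM-scaled CPM (y axis, from 0) of the 10 genes in Th1 for the groups RW, aJ1aJ2 and aN1aN2 (x axis), with 1 point per pool in the order of the sample numbers and a line for the mean of 3. Psmb9 lies at 9.58 to 10.8 in aN1aN2 and 16.6 to 24.1 in RW without overlap, and H2-T23 is the gene whose aN1aN2 points all lie above RW.

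The 15 leukocyte and macrophage markers, genes that thyrocytes should lack, were also measured in Th1. They summed to 696 to 1157 CPM in the RW samples, 454 to 1830 in aJ1aJ2 and 122 to 767 in aN1aN2, ranges that overlapped. Of 11 tested, 3 were called lower in aN1aN2, where 17.3% of all genes were. None of the 15 was at 0 in an RW sample, and up to 9 were at 0 in an aN1aN2 sample. The macrophage markers in Th1 of RW stood at 0.948% of their level in M. Thyrocyte markers in Th1 ranged from 89604 to 96866 CPM for RW and from 97836 to 113450 for aN1aN2, without overlap, and erythroid and endothelial markers overlapped. At the macrophage share of the M level, Psmb9 would be at 1.78 of the 21.4 CPM measured in Th1, Psmb8 at 4.28 of 54.0 and Tap2 at 0.576 of 38.0. No such share was computed for endothelial RNA, and the part of all these markers in the Th1 changes was not tested.

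EC1, the largest endothelial label (661 RW cells, 264 aN1aN2 cells), had lower inducible subunits and lower Tap1. All 10 genes were tested, 3 fell and none rose, where 17.8% of all genes were called (8.93% lower), and the median change was -0.34 beside -0.01 over all genes. Tap1 was at 61.1, 103 and 77.2 CPM in RW 1, 2 and 3 and at 27.1, 37.1 and 31.5 in aN1aN2, a change of -1.33 (SE 0.27, edgeR adjusted p 0.000981). Psmb9 was at 209, 285 and 254 CPM in RW and 151, 109 and 148 in aN1aN2, a change of -0.87 (SE 0.16, edgeR adjusted p 0.000542). Psmb8 was at 371, 534 and 509.5 CPM in RW and 303, 313 and 308 in aN1aN2, a change of -0.61 (SE 0.14, edgeR adjusted p 0.0028). For all 3 genes the aN1aN2 samples lay below the RW samples without overlap, and the calls held in 13 of 13 alternatives.

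The chains of the surface molecule itself were not called in EC1. The changes of B2m (-0.28, edgeR adjusted p 0.129), H2-K1 (-0.22, 0.228), H2-D1 (-0.16, 0.376) and H2-T23 (-0.03, 0.883) did not pass, nor did those of Tap2 (-0.40, 0.116) and Tapbp (-0.18, 0.356). Nlrc5 had 50 UMIs in RW and 4 in aN1aN2 (-1.49, SE 0.76, edgeR adjusted p 0.198). Leukocyte and macrophage markers in EC1 summed to 688 to 1314 CPM in RW, 176 to 223 in aJ1aJ2 and 82.3 to 288 in aN1aN2, and 8 of 11 tested were called lower in aN1aN2, where 8.93% of all genes were. Thyrocyte markers in EC1 were higher, with 699 to 974 CPM for RW against 1322 to 1942 for aN1aN2, and the endothelial markers of the label itself lower, at 14329 to 15921 and 10767 to 11298, both without overlap. The part of these shifts in the falls was not tested. In RW the macrophage markers stood at 1.00% of their level in M, a share at which Tap1 would be at 0.676 of its 79.5 CPM in EC1 and Psmb9 at 1.88 of 246.

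In EC2 the heavy chains fell too, and the median change was -0.81 beside -0.02 over all genes. Of 8 genes tested 5 fell, where 15.5% of all genes were called (6.62% lower). This label was small, with 20 or more cells in RW 1 and 2 only, and 92 cells in the 3 aN1aN2 samples. H2-K1 was at 1827 and 2397 CPM in RW and 1508, 1114 and 900.4 in aN1aN2 (-0.82, SE 0.21, edgeR adjusted p 0.016). H2-D1 was at 2567 and 3140 CPM against 2011, 1653 and 1399 (-0.74, SE 0.19, edgeR adjusted p 0.0132). H2-T23, which was higher in aN1aN2 in Th1, was at 389 and 481 CPM in RW and 241, 220.3 and 287 in aN1aN2 here (-0.81, SE 0.23, edgeR adjusted p 0.0275). No heavy chain overlapped between the groups.

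Psmb9 in EC2 was at 178 and 295 CPM in RW and 94.2, 73.4 and 76.6 in aN1aN2 (-1.45, SE 0.36, edgeR adjusted p 0.0119). Psmb8 was at 336 and 481 CPM against 219.9, 257 and 57.5, where aN1aN2 3 was far below the rest (-1.05, SE 0.33, edgeR adjusted p 0.0441). Over 12 alternatives H2-D1 and Psmb9 lost the call in 3, H2-K1 in 5, and H2-T23 and Psmb8 in 6, and each stayed below 0. All 5 calls were lost without RW 2, with adjusted p between 0.107 and 0.173, with 1 RW sample left, whose spread is then taken from the other groups. H2-D1, H2-K1 and Psmb8 were also lost without aN1aN2 3 (0.059, 0.0683 and 0.108), H2-K1, H2-T23 and Psmb9 without aN1aN2 2 (0.0611, 0.111 and 0.0526), and H2-T23 and Psmb8 without aN1aN2 1 (0.0965 and 0.102). With DESeq2, H2-T23 (0.166), Psmb8 (0.0871) and Psmb9 (0.0548) were not called, and with equal cells H2-T23 (0.117) and H2-K1 (0.0645). Leukocyte and macrophage markers in EC2 came to 788 CPM in RW 1 and 111 in RW 2, to 24.1 to 42.9 in aJ1aJ2 and to 0 to 53.7 in aN1aN2. These sums held 179 UMIs in RW and 6 in aN1aN2, with Csf1r and Cd68 at 0 in RW and in aN1aN2. Erythroid markers in EC2 ranged over 411 to 494 CPM for RW against 1341 to 1772 for aN1aN2, thyrocyte markers over 645 to 651 against 848 to 1596, and endothelial markers over 5353 to 6092 against 4399.9 to 4893.5, none with overlap. The part of these markers in the changes was not tested.

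In EC3, Psmb9 was the 1 gene called of 8 tested, where 5.91% of all genes were called (2.41% lower). It was at 98.6, 160.1 and 118 CPM in RW 1, 2 and 3 and at 88.8, 41.9 and 19.7 in aN1aN2, below RW without overlap (-1.38, SE 0.38, edgeR adjusted p 0.0428). Its call was lost in 7 of 13 alternatives, over which the change was -0.98 to -1.98: without RW 2 (0.096), aN1aN2 2 (0.174) or aN1aN2 3 (0.196), with DESeq2 (0.0804), equal cells (0.0831) or only the 2 compared groups (0.0563), and with the title number as a replicate block (0.176). Psmb8 ranged from 197 to 274 CPM in RW and from 121 to 190.4 in aN1aN2, also without overlap, but did not pass (-0.50, edgeR adjusted p 0.258). Leukocyte and macrophage markers in EC3 came to 131, 2799 and 140.2 CPM in RW 1, 2 and 3 and to 18.2 to 39.6 in aN1aN2. RW 2, which stands apart, also had the highest Psmb9 and is one of the samples without which the call was lost (-1.16). The markers of the aN1aN2 samples lay below those of RW 1 and 3 as well. These sums held 1594 UMIs in RW and 12 in aN1aN2, with Ptprc and Csf1r at 0 in both groups. Without overlap, erythroid markers in EC3 were higher in aN1aN2 (743 to 1130 CPM, against 120 to 306 in RW), as were endothelial markers (5101 to 6741 against 3385 to 4626), and fibroblast markers were lower (24.2 to 38.7 against 53.5 to 770.1). Their part in the fall of Psmb9 was not tested.

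In EC4, H2-D1 and H2-T23 rose. H2-D1 was at 1917, 1724 and 1908 CPM in RW 1, 2 and 3 and at 2634, 2858 and 2182 in aN1aN2, above RW without overlap (0.46, SE 0.16, edgeR adjusted p 0.0412). H2-T23 was at 472, 689.7 and 311 CPM in RW and 706, 833 and 667 in aN1aN2, where RW 2 lay within the range of aN1aN2 (0.61, SE 0.22, edgeR adjusted p 0.045). These were the 2 calls among 9 genes tested, a share close to that of all genes, of which 21.1% were called (11.2% higher). The difference between EC4 and EC2 was not tested. H2-K1 overlapped, with 2468 to 2562 CPM in the RW samples and 1959.8 to 2744 in the aN1aN2 samples (-0.06, edgeR adjusted p 0.854). B2m had 3177 to 4064 CPM in the RW samples against 2682 to 2897 in aN1aN2, without overlap, and did not pass (-0.39, SE 0.16, edgeR adjusted p 0.0846).

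The changes in EC4 stayed above 0 in 13 of 13 alternatives, at 0.29 to 0.58 for H2-D1 and 0.34 to 0.90 for H2-T23, but most of these did not keep the call. H2-D1 was called in 4 of 13 alternatives and lost without RW 1 (0.0897), RW 2 (0.133), RW 3 (0.0755), aN1aN2 1 (0.112) or aN1aN2 2 (0.202). H2-T23 was called in 4 of 13 and lost without RW 1 (0.123), RW 3 (0.301, where the change was 0.37), aN1aN2 1 (0.0717) or aN1aN2 2 (0.165). With equal numbers of cells per sample the changes were 0.29 for H2-D1 (0.346) and 0.34 for H2-T23 (0.374). EC4 cells were shallow in every group, with a median of 880 to 1159.5 UMIs per cell in the RW samples and 939 to 1048 in aN1aN2. The summed leukocyte and macrophage markers came to 218 to 789 CPM (157 UMIs) for RW and 41.4 to 74.4 (30 UMIs) for aN1aN2. Ptprc was at 0 in both, while other listed markers were present. Erythroid markers in EC4 were at 218 to 1065 CPM for RW and 1667 to 2386 for aN1aN2, and endothelial markers at 13828 to 14698 and 12310 to 12637, also without overlap, and their part in the rises was not tested.

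In the fibroblast label F the light chain B2m fell, from 798, 1045 and 1079 CPM in RW 1, 2 and 3 to 739.9, 494 and 613 in aN1aN2. The groups did not overlap (-0.68, SE 0.20, edgeR adjusted p 0.0198), and the call was lost without RW 2 (0.0675) or aN1aN2 2 (0.101). It was the 1 gene called of 7 tested, where 19.8% of all genes were called (10.6% lower). H2-K1 (-0.22, edgeR adjusted p 0.522), H2-D1 (-0.14, 0.711) and H2-T23 (0.17, 0.591) overlapped between the groups. Leukocyte and macrophage markers in F came to 10.5 to 74.1 CPM (44 UMIs) for RW and 0 to 22.5 (5 UMIs) for aN1aN2, with Ptprc at 0 in both. At the macrophage share of F in RW the B2m of M would give 1.23 of its 989.7 CPM. Erythroid markers in F were higher in aN1aN2 without overlap, with 109 to 296 CPM for RW against 851, 43673 and 1233 for aN1aN2 1, 2 and 3. The sample with the most, aN1aN2 2, is one of those without which the B2m call was lost (-0.56), and the part of the erythroid RNA in the fall was not tested. In Th3, 4 genes were tested and none was called, where 5.03% of all genes were. M held 22 aN1aN2 cells and T1 42, too few to test.

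**Figure D3:**
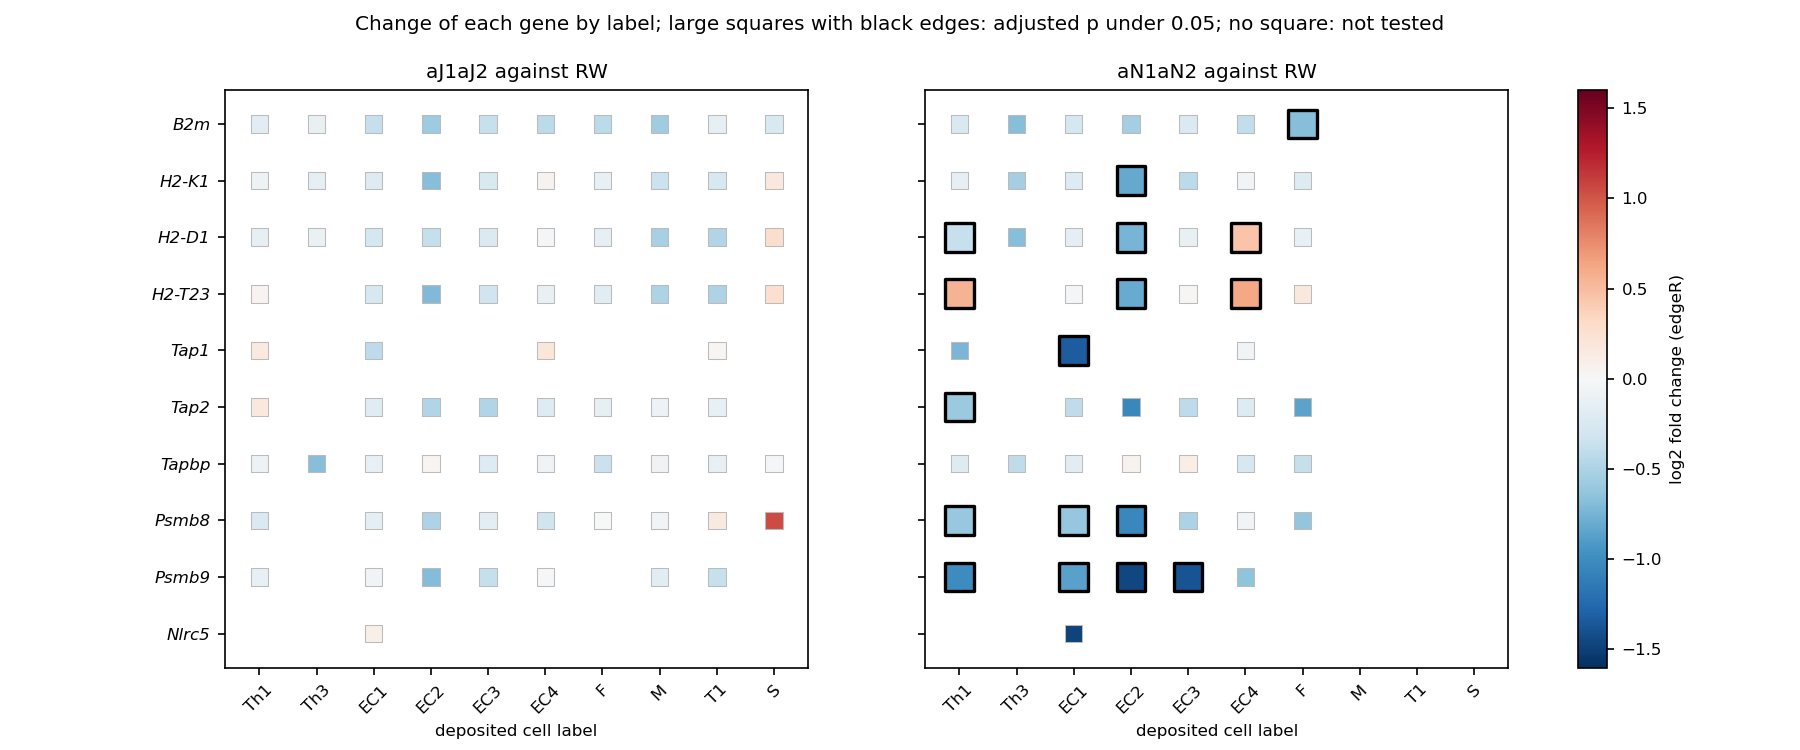
The log2 change of each gene (rows) in each label (columns) for aJ1aJ2 against RW and aN1aN2 against RW, coloured from -1.6 (blue) to 1.6 (red), with large black-edged squares for an adjusted p under 0.05. Of the pairs tested, 17 are called in the aN1aN2 panel, 14 of them lower, and 0 in the aJ1aJ2 panel.

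**Figure D4:**
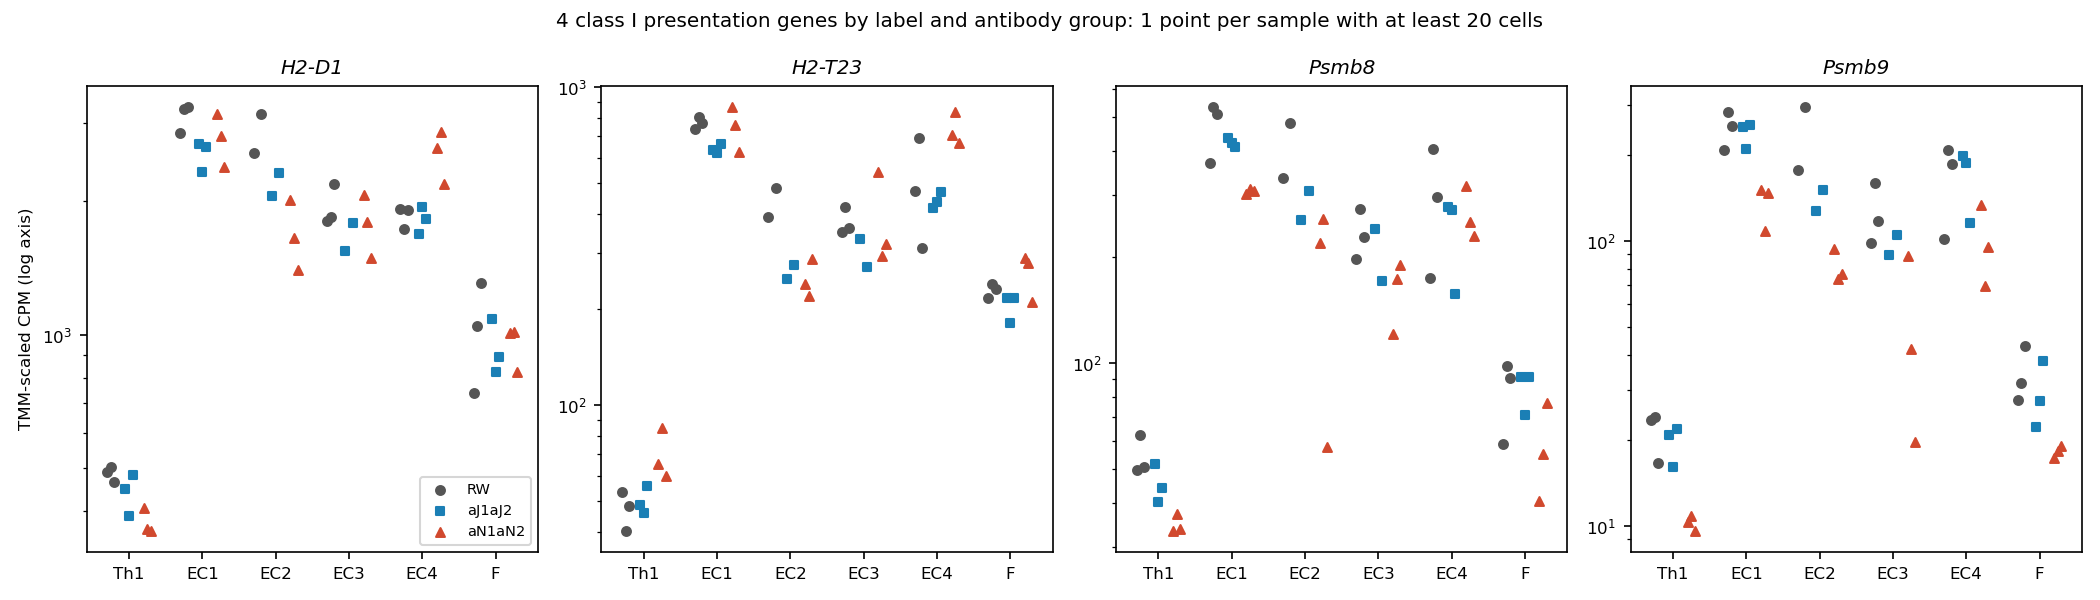
TMM-scaled CPM (log y axis) of H2-D1, H2-T23, Psmb8 and Psmb9 in 6 labels (x axis), with 1 point per sample with at least 20 cells of the label, grey for RW, blue for aJ1aJ2 and red for aN1aN2. H2-T23 of aN1aN2 lies above RW in Th1 (59.9 to 84.6 against 40.1 to 53.2 CPM) and below it in EC2 (220.3 to 287 against 389 to 481).

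The difference between thyrocytes and other labels was then tested itself, in 1 edgeR fit of Th1 with each of EC1, EC2, EC4 and F that kept the pool as a block. For aN1aN2 against RW, 4 of 38 gene and label pairs were called, and in the same fits 5.89% of all genes were. H2-D1 changed by 0.90 log2 units more in EC4 than in Th1 (SE 0.21, edgeR adjusted p 0.000796), with a change of 0.46 in EC4 and of -0.36 in Th1. H2-T23 differed by -1.45 in EC2 from Th1 (SE 0.32, edgeR adjusted p 0.000608), from -0.81 in EC2 and 0.56 in Th1. H2-D1 in EC4 held in 8 of 8 alternatives and H2-T23 in EC2 in 7 of 7. H2-T23 in EC1 differed by -0.63 (SE 0.18, edgeR adjusted p 0.0259) and H2-K1 in EC2 by -0.75 (SE 0.23, edgeR adjusted p 0.0402), and these held in 5 of 8 and 1 of 7. The difference of H2-T23 in EC1 was lost without RW 2 (0.187) or aN1aN2 2 (0.157). That of H2-K1 in EC2 was lost without RW 1 (0.252), RW 2 (0.329), aN1aN2 2 (0.107) or aN1aN2 3 (0.18). For Psmb8 and Psmb9 no difference from Th1 was called, with adjusted p of 0.22 or more. In EC1 the difference was -0.04 (SE 0.19) for Psmb8 and 0.08 (SE 0.28) for Psmb9.

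The second comparison asked what blocking the ligands Jag1 and Jag2 did. No class I presentation gene passed in any label: of 79 gene and label pairs tested in 12 labels with edgeR 0 were called, 15 had an unadjusted p under 0.05, and the lowest adjusted p was 0.0817, for H2-T23 in EC2. In S the changes of H2-K1 and H2-D1 were 0.17 and 0.28 (edgeR adjusted p 0.947 and 0.892). With the title-number series as a block they were 0.80 and 1.501 (edgeR adjusted p 0.0271 and 0.000129), but RW 3 is then alone in its series, so this contrast sets 2 aJ1aJ2 samples against RW 1 alone and does not carry a comparison of the groups. Leukocyte and macrophage markers in S came to 29.8 to 56.3 CPM for RW against 205 to 1078 for aJ1aJ2. Few genes of any kind were called in this contrast (0.662% of all pairs). Of the 79 changes, 65 were below 0 (82.3%) and 14 above, beside 50% below 0 over all genes in the same fits. The pairs share genes and libraries, so this is a description. Both blockades were measured against the same RW samples, so their changes are not independent.

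B2m was below RW in all 10 labels tested in aJ1aJ2, and in all 7 tested in aN1aN2. In EC1 it was at 2843, 3737 and 2482 CPM in RW 1, 2 and 3 and at 2346, 2306 and 2273 in aJ1aJ2 1, 3 and 4. The aJ1aJ2 samples were close together and below every RW sample. The aN1aN2 samples were at 2322 to 2618 CPM. The change was -0.39 (SE 0.12, edgeR adjusted p 0.144), and B2m in EC1 was called without RW 3 (-0.51, 0.0169), where 1.43% of all genes were called in the full fit. In M, B2m ranged over 2477 to 2556 CPM in RW and over 1592 to 1812 in aJ1aJ2 without overlap (-0.57, SE 0.16, edgeR adjusted p 1), where 0% of all genes were called. In EC2, where 1.91% of all genes were called, all 3 heavy chains of aJ1aJ2 lay below RW, with H2-T23 at 249 and 275 CPM in aJ1aJ2 3 and 4 (-0.71, SE 0.21, edgeR adjusted p 0.0817). Leukocyte and macrophage markers in EC2 were lower in aJ1aJ2 than in RW too, as given above, without overlap, and their part was not tested.

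In Th1 all 9 tested genes of aJ1aJ2 overlapped with RW. Psmb9 was at 20.8, 16.1 and 21.98 CPM in aJ1aJ2 1, 3 and 4 (-0.13, SE 0.20, edgeR adjusted p 0.838) and Tap2 at 46.4, 36.4 and 49.8 (0.17, SE 0.14, edgeR adjusted p 0.701), both overlapping with RW. Psmb8 was at 51.7, 40.1 and 44.0 CPM (-0.25, SE 0.14, edgeR adjusted p 0.495). H2-D1 was at 449, 389 and 483 CPM, H2-K1 at 595, 581 and 683, H2-T23 at 48.5, 45.9 and 55.5 and B2m at 447, 403 and 428. Tap1 was at 17.0, 10.8 and 20.2 CPM and Tapbp at 164, 111 and 141. Each of these overlapped with RW, and 0.612% of all genes were called in Th1. In EC1, Psmb9 was at 251, 211 and 256 CPM in aJ1aJ2 (-0.06, SE 0.14) and Tap1 at 53.2, 68.8 and 54.5 (-0.42, SE 0.19, edgeR adjusted p 0.342).

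The last comparison set aN1aN2 against aJ1aJ2. Of 60 pairs tested in 10 labels 5 were called lower and 3 higher, a share close to that of all genes, where 12.9% of pairs were called (6.52% lower and 6.4% higher). In Th1, where 22.3% of all genes were called, Tap2 was lower by 0.77 (a log2 change of -0.77, SE 0.17, edgeR adjusted p 0.00376) in 13 of 13 alternatives, Psmb9 changed by -0.88 (SE 0.25, edgeR adjusted p 0.0198) and H2-T23 by 0.52 (SE 0.16, edgeR adjusted p 0.0267). Psmb9 in Th1 was lost without aJ1aJ2 4 (0.0593), aN1aN2 1 (0.0734) or aN1aN2 2 (0.061), and H2-T23 without aJ1aJ2 3 (0.104) or aN1aN2 2 (0.167).

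In EC1, where 13.5% of all genes were called, Psmb9 changed by -0.81 (SE 0.17, edgeR adjusted p 0.0017) in aN1aN2 against aJ1aJ2, a call kept in 12 of 12 alternatives. Tap1 changed by -0.91 (SE 0.28, edgeR adjusted p 0.0332) and was lost without aJ1aJ2 3 (0.116) or any of aN1aN2 1 (0.161), 2 (0.0635) and 3 (0.0912). Psmb8 changed by -0.46 (SE 0.14, edgeR adjusted p 0.0315) and was lost without any 1 of the 6 samples (0.0504 to 0.107). In EC4, where 17.2% of all genes were called, H2-D1 changed by 0.49 (SE 0.16, edgeR adjusted p 0.0353) and H2-T23 by 0.73 (SE 0.22, edgeR adjusted p 0.0199). H2-D1 in EC4 was lost without aJ1aJ2 1 (0.0566), 3 (0.0599) or 4 (0.106) or without aN1aN2 1 (0.0984) or 2 (0.18). H2-T23 in EC4 was lost without aJ1aJ2 3 (0.0746) or 4 (0.0666) or without aN1aN2 2 (0.0957).

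The rest of the pathway was counted from lists for aN1aN2 against RW. Of all genes, 17.3% were called lower in Th1, 8.93% in EC1, 6.62% in EC2, 2.41% in EC3, 9.93% in EC4 and 10.6% in F, and each count below is read against that share. Peptide loading factors fell in each of these 6 labels, led by Calr and Pdia3, the lectin chaperone and the oxidoreductase of the loading complex, which also serve protein folding in general. In Th1, 4 of 5 loading genes fell where 17.3% of all genes did, with Calr at -3.24 (SE 0.20, edgeR adjusted p 2.57e-08) and Pdia3 at -2.38 (SE 0.17, edgeR adjusted p 1.12e-07), and the list median was -0.91. Calr and Pdia3 were the genes called in EC1 (-1.45 and -0.95, 2 of 5 tested), EC4 (-0.86 and -0.99, 2 of 4) and F (-1.92 and -1.75, 2 of 4). In EC2 it was Calr (-1.05, 1 of 3) and in EC3 Pdia3 (-0.83, 1 of 5). Th3 was tested as well but is not among these 6 labels, and its loading list median was -2.95 over 3 genes.

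Of the other inducible proteasome genes, Psmb10 and the activator genes Psme1 and Psme2, at least 1 was called lower in Th1, EC1, EC2 and F. In Th1, Psmb10 changed by -0.97 (SE 0.18, edgeR adjusted p 0.000686) and Psme2 by -0.64 (SE 0.13, edgeR adjusted p 0.00136), 2 of 3 tested where 17.3% of all genes were lower. All 3 fell in EC1, where 8.93% of all genes did, led by Psmb10 (-0.86) and Psme1 (-0.66). In EC2 Psme1 fell (-0.88, 1 of 3), in F Psmb10 (-1.18) and Psme2 (-0.82) did (2 of 3), and in EC3 and EC4 none was called. The constitutive counterparts that the inducible subunits replace also fell in Th1, 3 of 3 beside 17.3% of all genes, with Psmb5 at -1.14 and Psmb6 at -0.80. In EC1 Psmb7 alone of these 3 was called (-0.88), and in EC2, EC3, EC4 and F none was.

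Other class I heavy chains were mixed in Th1 and EC1 and higher in EC4. The list median was 0.12 in Th1, 0.35 in EC1, -0.42 in EC2, 0.07 in EC3, 0.94 in EC4 and -0.44 in F. H2-Q6 rose in Th1 (0.91), EC1 (0.75) and EC4 (1.01, SE 0.26, edgeR adjusted p 0.00517), and H2-M3, which presents formylated peptides, fell in Th1 (-1.10) and EC1 (-1.21). In EC4 all 4 tested heavy chains of the list rose, where 11.2% of all genes did, led by H2-Q6 and H2-Q4 (0.98), beside the 2 calls of H2-D1 and H2-T23. In Th1, 1 of 5 tested rose and 1 fell, and in EC1 1 of 7 rose and 1 fell. Class I heavy chains are close paralogs, so these counts may be split uncertainly.

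The regulators of the pathway were mostly not called. In Th1, where 34.4% of all genes were called, 2 of 13 were: Rela rose (0.50) and Ifngr2 fell (-0.74). In EC1, Ifngr2, a chain of the interferon gamma receptor, fell by 0.76 (SE 0.26, edgeR adjusted p 0.0481), and in F Ifngr1 rose by 1.08. Members of the interferon-stimulated list fell in each of 6 labels, and the list median was -0.95 in Th1, -1.27 in EC1, -1.29 in EC2, -1.72 in EC3, -1.17 in EC4 and -1.73 in F. In EC1, 10 of 12 fell beside 8.93% of all genes: Gbp3, a guanylate-binding GTPase, changed by -1.99 (SE 0.31, edgeR adjusted p 6.41e-05), and Oas1a had 59 UMIs in RW and 0 in aN1aN2, at least 4.33-fold lower at a floor of 3 counts over the group. In EC2, 4 of 10 fell beside 6.62% of all genes, with Iigp1 at -2.72 and Gbp3 at 1 UMI. In EC3, 5 of 10 fell beside 2.41% of all genes, led by Gbp3 (-2.78) and Iigp1 (-2.16), and in F 3 of 5 beside 10.6%, led by Iigp1 (-2.98) and Ifi27 (-1.81). In EC4, 6 of 9 fell beside 9.93%, led by Gbp3 (-1.92) and Isg15 (-1.53), and Rsad2 rose (1.07). In Th1, 3 of 9 fell beside 17.3%, led by Isg15 (-1.63) and Ifi27 (-1.46), and Ifit3 rose (1.41). The leukocyte and macrophage markers given above were lower in aN1aN2 too, without overlap, in EC1, EC2, EC3 and EC4. Their part in the falls of this list was not tested. In aJ1aJ2 against RW, 3 of 277 gene and label pairs of all these lists were called, beside 0.662% of all pairs: Ifngr2 in EC1 (-1.01, where 1.43% of all genes were called), Gbp3 in EC2 (-1.57, 1.91%) and Rsad2 in EC4 (1.502, 0.903%).

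**Figure D5:**
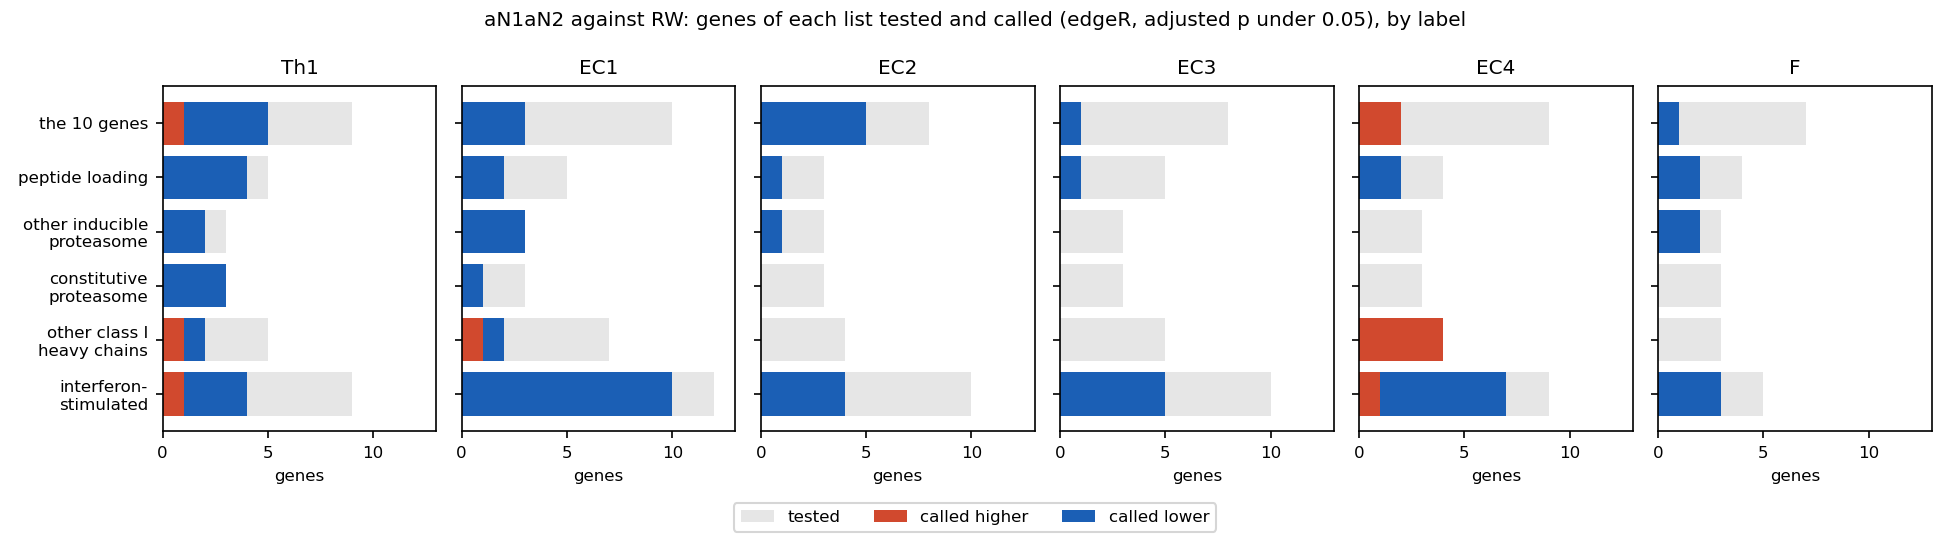
Number of genes of each list (rows, x axis in genes) tested in aN1aN2 against RW (grey) and called higher (red) or lower (blue) in 6 labels. Interferon-stimulated genes were called lower in 10 of 12 in EC1 (8.93% of all genes), and the other class I heavy chains were called higher in 4 of 4 in EC4 (11.2% of all genes).

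Ratios within a sample, which need no scaling between libraries, were compared over samples by a two-sided exact permutation test, whose smallest p with 3 against 3 is 0.1, and 69 such tests were made. None can pass 0.05 in this design, and adjusted values are not given because the smallest raw p is already above it. A p of 0.1 was reached by 10 of the 69 tests, 5 of 25 for aN1aN2 against RW, 0 of 24 for aJ1aJ2 against RW and 5 of 20 for aN1aN2 against aJ1aJ2. The ratio of H2-D1 to H2-K1 UMIs in EC4 was 0.673 to 0.773 in RW, 0.548 to 0.839 in aJ1aJ2 and 1.02 to 1.11 in aN1aN2 (exact permutation p 0.1 against RW). In Th1 it was 0.731 to 0.756 in RW and 0.624 to 0.648 in aN1aN2 (exact permutation p 0.1), so this ratio was higher in aN1aN2 in EC4 and lower in Th1, without overlap in either. The ratio of Psmb9 to its constitutive counterpart Psmb6 in EC1 was 0.961 to 1.31 in RW and 0.539 to 0.904 in aN1aN2 (exact permutation p 0.1). The other inducible subunits overlapped in EC1: Psmb8 to Psmb5 was 1.82 to 2.62 in RW and 1.81 to 1.86 in aN1aN2 (exact permutation p 0.2), and Psmb10 to Psmb7 was 2.27 to 2.86 and 2.04 to 3.23 (exact permutation p 0.9). The remaining separations from RW were Psmb10 to Psmb7 in EC3, at 1.25 to 1.55 in RW and 0.357 to 1.09 in aN1aN2, and Psmb9 to Psmb6 in F, at 0.174 to 0.326 and 0.115 to 0.158, on 27 and 8 UMIs of the inducible subunit in aN1aN2 (exact permutation p 0.1 each). The ratio of Psmb9 to Psmb6 in Th1 was 0.0578 to 0.0986 in RW and 0.0620 to 0.0717 in aN1aN2, an overlap (exact permutation p 0.4). That of Psmb8 to Psmb5 in Th1 was 0.190 to 0.249 in RW and 0.226 to 0.380 in aN1aN2, also an overlap (exact permutation p 0.2).

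To set cells of unequal depth on 1 footing, each Th1 cell was thinned to 3000 UMIs, which left out 3 shallower cells in RW, 7 in aJ1aJ2 and 70 in aN1aN2. H2-T23 was then seen in 6.02% to 15.6% of cells in the RW samples and in 16.0% to 26.7% in aN1aN2, without overlap (exact permutation p 0.1). Unthinned, the shares were 38.1% to 54.7% and 38.0% to 46.9%. Psmb9 was seen in 3.77% to 7.23% of thinned RW cells and 0% to 3.05% of aN1aN2 cells, without overlap (exact permutation p 0.1), and in 27.3% to 33.9% and 9.49% to 12.5% unthinned. Neither separation held at 2000 UMIs, where 1 cell was left out in RW and 25 in aN1aN2. H2-T23 was then seen in 5.00% to 8.33% of RW cells and 7.14% to 17.4% of aN1aN2 cells, and Psmb9 in 1.11% to 2.38% and 1.97% to 3.57%, with the aN1aN2 mean above that of RW. At 2000 UMIs it was H2-D1 and Psmb8 that did not overlap between RW and aN1aN2, at 54.4% to 63.1% of RW cells against 44.6% to 49.3% and at 8.33% to 10.0% against 1.79% to 3.48%. Each depth was 1 random draw per cell, so these shares vary with the draw, and the part of depth cannot be told apart from it. Tap1 in RW 1 was seen in 8 of 180 cells at 3000 UMIs and in 12 of the same 180 at 2000. B2m was seen in 62.8% to 65.1% of RW cells, 56.5% to 57.8% of aJ1aJ2 cells, without overlap at either depth (exact permutation p 0.1), and 44.4% to 64.9% of aN1aN2 cells (exact permutation p 0.4). H2-D1 likewise lay lower in aJ1aJ2 than in RW at both depths, at 59.3% to 64.4% against 69.4% to 71.1% at 3000 UMIs (exact permutation p 0.1) and 47.9% to 54.0% against 54.4% to 63.1% at 2000. As a background for free RNA, thinned cells of Eryth2 (947 cells, median 7944.5 UMIs before thinning beside 12553 in Th1) had a UMI of H2-T23 in 0 cells, for which 0 counts allow up to 0.389% (Clopper-Pearson), of Psmb9 in 0.106% and of B2m in 1.48%.

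Counts of the heavy chains may be uncertain where reads fit more than 1 gene. Of the 50-base words in the last 500 bases of their transcripts, where 3' reads fall, 38.1% in H2-T23, 9.6% in H2-K1 and 8.92% in H2-D1 also occur in another gene, beside 0% in B2m. The genes that share most with H2-T23 were Rab33b (17.3%), the class I pseudogene H2-T-ps (14.4%) and Hook2 (13.5%), and H2-K1 shared 7.71% with H2-D1, so the changes of these genes carry this limit. Tap1 and Psmb9 overlap by 212 bp on opposite strands, with 1658 and 4298 UMIs over all cells, so reads of one could be counted for the other if strand was not used. The gene Patl2, opposite to B2m, had 3 UMIs beside 57358 for B2m, and A930015D03Rik, opposite to H2-T23, had 57 beside 12827. Tapbp (9769 UMIs) overlaps Zbtb22 on its own strand (929) and Gm19412 on the other (696). The strand setting of the counting is not given in the sources used here.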

How the data were processed

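Thyroid cells of 9 pools were profiled by single-cell RNA sequencing, 3 pools for each of 3 antibody groups. The authors deposited raw UMI counts per gene and cell, made with Cell Ranger on GRCm38 per the submitters' processing notes, without versions, and a table with a cell label and a sample per cell. How the labels were made and whether doublets were removed is not given in the sources used here, and no doublet caller was run. In the label table an unquoted comma had shifted 2619 lines by a column, and these were realigned. Gene symbols were matched by identifier for 52403 genes, and 233 stayed unmatched.

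Counts were summed per sample and label, keeping sums of at least 20 cells. A label was tested where 2 samples of each compared group remained. Fits held all 3 groups, used edgeR 4.0.16 (filterByExpr, TMM, glmQLFit and glmQLFTest, limma 3.58.1, R 4.3.3), and were adjusted by Benjamini-Hochberg over all genes of a label at 0.05. They were tested on simulated data first. Differences between labels were fitted with the pool as a block. Exact permutation tests and intervals (95%, Clopper-Pearson) used scipy 1.17.1 and tables pandas 2.3.3 (Python 3.11.15). Intervals cover counting error only.

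All 10 genes are named wherever measured, with sample values where called and for all in Th1. Of each pathway list, the called genes with the 2 largest changes in each direction are named. The values of 1 gene are not reported here. The genes, lists and rules were chosen with earlier results of these data known. Alternatives were DESeq2 1.42.0, its size factors, no filter, cells of at least 1000 UMIs, equal cells per sample, only the compared groups, leaving out each sample, and blocks for title numbers.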

Additional observations from a re-analysis of the deposited data

Results flagged for a closer look

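A difference in response between labels, tested directly as the change under aN1aN2 against RW in a label minus that in Th1, was called with edgeR for 4 gene and label pairs. H2-D1 in EC4 differed by 0.90 log2 units from Th1, with every aN1aN2 sample above RW in EC4 (3 of 3) and below it in Th1 (3 of 3). H2-T23 differed by -1.45 in EC2 and by -0.63 in EC1 from its rise in Th1. H2-K1 differed by -0.75 in EC2. Median UMIs per cell were lower in aN1aN2 than in RW without overlap in Th1, EC1 and EC2 and overlapped in EC4, and the part of depth in these differences was not tested.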

How the results depend on the processing

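Over all alternatives, single-gene values stayed on their side of the threshold in 483 cases, lost the call in 89 and gained it in 8. The sign turned in 13 of the 580, for uncalled changes of aJ1aJ2 against RW or aN1aN2 against aJ1aJ2 in Th1, and in 0 for a called value. The shares of thinned Th1 cells did not overlap between RW and aN1aN2 for 2 genes at both depths, but for different genes (H2-T23 and Psmb9 at 3000 UMIs, H2-D1 and Psmb8 at 2000). Each depth was 1 random draw per cell. For aN1aN2 against RW, the 17 calls over all labels became 11 with DESeq2, 10 with equal numbers of cells per sample, and 9 to 17 when 1 sample was left out (9 without RW 2, 11 without aN1aN2 2). The 5 calls in Th1 became 3 with equal cells and 4 to 6 when 1 sample was left out. For aN1aN2 against aJ1aJ2, the 8 calls became 4 with DESeq2, 4 with equal cells and 4 to 6 when 1 sample was left out (4 without aJ1aJ2 4, aN1aN2 1 or aN1aN2 2, and 5 without aJ1aJ2 3), and the 3 in Th1 became 1 with DESeq2 and 2 to 3. For aJ1aJ2 against RW, the 0 calls became 1 with no filter (B2m in EC1, -0.40), 2 with the title-number series as a block (H2-K1 and H2-D1 in S, 0.80 and 1.501), and 0 to 3 when 1 sample was left out, the 3 being without RW 3. In S both settings rest on RW 1 alone, since RW 3 is the 1 sample of its series there, and its spread is taken from the other groups. The 4 differences from Th1 became 2 with no filter and 2 to 5 when 1 sample was left out (2 without RW 2 or aN1aN2 2). The causes were not tested. With the title number as a replicate block (numbers 1 and 2, shared by RW and aN1aN2), 8 genes were called in Th1 and 17 over all labels. Same-numbered samples did not deviate together in Th1 (r 0.021 and -0.019 over 10940 genes), so pairing was not established. Depth limits Nlrc5, which was tested in EC1 alone, and labels M, T1 and S, which were too small in aN1aN2.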
